A study of Homo sapiens with 16 samples.

Results

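LGALS2, TM4SF4 and APLP1 are 3 genes with little in common by function that were picked because ICG-001 lowered their transcripts in AsPC-1 cells, and lowered them further at 24 h than at 6 h. They were read by 3 probe sets, 1 for each gene, out of 9554 probe sets in the deposited table and 6442 that name a single gene. The choice rests on the drug arrays themselves, so the drug values below are a description and carry no test. CTNNB1 knockdown, measured on other arrays, was not part of the choice and was tested.

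AsPC-1 is an established human cell line from a pancreatic adenocarcinoma. In the drug experiment the cells were kept in RPMI medium with serum and given 10 µM ICG-001 or DMSO, its vehicle, for 6 h or 24 h, with 3 Affymetrix arrays in each of these 4 groups. In a separate experiment they were transfected by lipofectamine with 20 nM of control siRNA or of CTNNB1 siRNA and read at 48 h, with 2 arrays in each of the 2 groups. All 6 groups are the same unmodified line, so no group is a separate clone or donor, and the siRNA groups had no ICG-001 or DMSO. The arrays of a group are named as biological replicates, with no word on separate cultures or days, so a p-value here measures the spread between these arrays, which may be technical.

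LGALS2 encodes galectin-2, a small lectin that binds β-galactosides on glycoproteins and is known from the epithelium of the gut. TM4SF4 encodes a multi-pass membrane protein of the L6 tetraspan family, found in liver, intestine and pancreas. APLP1 encodes a membrane glycoprotein of the amyloid precursor protein family that is best known from neurons and is cut by secretases. CTNNB1 is the gene for β-catenin, which activates T cell factor target genes with the help of coactivators. ICG-001 is reported to act on one of these, CBP.

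The stretches before the transcription starts are shown because the 3 genes were chosen for a like late fall under the drug and these stretches are unlike one another. Each is the 250 bases upstream of the RefSeq start in GRCh38.p14, read 5′ to 3′ on the gene's strand, and all 3 genes were found in the promoter table. LGALS2 lies on chromosome 22 from 37570248 to 37580087, and its stretch is chr22:37580088-37580337 on the minus strand. TM4SF4 lies on chromosome 3 from 149474697 to 149503394, and its stretch is chr3:149474447-149474696 on the plus strand. APLP1 lies on chromosome 19 from 35868574 to 35879792, and its stretch is chr19:35868324-35868573 on the plus strand. Capitals mark matches to any of the 9 short motifs searched.
LGALS2: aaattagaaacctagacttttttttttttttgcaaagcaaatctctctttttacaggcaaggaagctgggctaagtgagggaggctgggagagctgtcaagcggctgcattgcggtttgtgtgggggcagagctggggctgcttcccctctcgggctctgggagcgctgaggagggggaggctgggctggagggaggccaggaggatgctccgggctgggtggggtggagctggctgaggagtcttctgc
TM4SF4: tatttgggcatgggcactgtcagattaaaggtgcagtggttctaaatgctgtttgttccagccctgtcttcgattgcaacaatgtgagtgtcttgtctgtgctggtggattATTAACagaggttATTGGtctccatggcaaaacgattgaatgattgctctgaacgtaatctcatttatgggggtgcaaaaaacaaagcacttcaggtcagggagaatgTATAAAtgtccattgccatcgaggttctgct
APLP1: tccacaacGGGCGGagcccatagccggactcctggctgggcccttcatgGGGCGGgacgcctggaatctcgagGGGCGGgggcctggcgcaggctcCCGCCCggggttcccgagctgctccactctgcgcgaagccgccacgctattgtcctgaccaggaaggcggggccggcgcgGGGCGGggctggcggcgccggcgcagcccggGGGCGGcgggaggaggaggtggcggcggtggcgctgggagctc

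The APLP1 stretch was 77.2% G and C with 30 CpG dinucleotides, and 93.2% of the 35116 stretches in the table had a lower G and C content. The TM4SF4 stretch was 43.2% G and C with 4 CpG, and 18.6% of stretches were lower. The LGALS2 stretch was 58% G and C, the median of all stretches, with 5 CpG against a median of 11. APLP1 held 6 matches to GGGCGG, an Sp1 motif present in 42.6% of stretches, and LGALS2 and TM4SF4 held 0. TM4SF4 held TATAAA from 31 to 26 bases before the start (10.7% of stretches have it), a reversed CCAAT from 126 to 122 bases before it (32% of stretches) and a reversed GTTAAT, a part of an HNF1 site, from 139 to 134 bases before it (6.23% of stretches). The TATAAA and HNF1 matches are apart from each other and from the CCAAT match. ATCAAAG for T cell factor and LEF (2.26% of stretches), TGANTCA for AP-1 (6.57%), TGACGT for cyclic AMP response factors (7.1%), TGTTTAC for forkhead factors (2.98%) and AGATAA for GATA factors (9.17%) were in none of the 3 stretches. Both strands were searched for every motif. A match is a run of letters and was not tested as a binding site, and a missing match speaks only of these letters in this window.

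The values are deposited array intensities on a linear scale, and each log2 change below is on the log2(intensity + 16) scale after quantile normalization of the 16 arrays. Probe sets listed in the table vary by at least 40% of their mean over the arrays, to rounding, so steady genes are outside every count. A gene that also has steadier probe sets is read here only by those listed. Array medians were 20.6 to 28.6 in the drug experiment and 12.7 to 13.05 in the siRNA experiment. The targeted gene CTNNB1 had 0 probe sets of its own among those analysed here, so its knockdown was not checked on its own transcript. Of 18 ductal and epithelial markers 8 were measured, with E-cadherin (CDH1), KRT7, MUC1 and CLDN7 among them. CDH1 read 273 to 371 on the drug arrays but 8.68 to 16.6 on the siRNA arrays, near the array medians. KRT19, another of the 8, read 7.23 to 15.8 on the siRNA arrays. Their summed intensity, as deposited, was 7371 to 9629 with DMSO, 13574 to 16487 with ICG-001 and 3407 to 4139.8 on the siRNA arrays. Much of the higher sum with ICG-001 was S100P, whose 24 h means were 722 (DMSO) and 6763 (ICG-001). On the normalized scale 3 of the 8 rose at 24 h, S100P (2.74), TFF1 (0.40) and CLDN7 (0.34). The 2 that fell were KRT7 (-1.35) and MUC1 (-0.28), and the list's median was 0.08. Among all genes 9.22% rose and 11.3% fell at that time. Of 15 islet and neuroendocrine markers 0 were measured. Of 12 acinar markers 3 were measured, PRSS2, CELA3B and BHLHA15, and their sum was 4972 to 5721 with DMSO, 7399 to 9278 with ICG-001 and 2061 to 2668 on the siRNA arrays. Most of that sum was PRSS2, which on the normalized scale fell at 6 h (-0.22, limma adjusted p = 0.0139) and stood at 0.11 at 24 h (limma adjusted p = 0.276). BHLHA15 rose on that scale at both times, by 1.51 at 6 h and 1.55 at 24 h (limma adjusted p = 6.16e-11 and 2.05e-11). CELA3B stood at -0.29 and -0.27 and passed at neither time. Fibroblast (5 of 9 measured), leukocyte (2 of 9) and endothelial markers (4 of 7) summed to 318 to 449, 83.4 to 129.9 and 50.6 to 116 on the drug arrays and to 160.4 to 220.2, 7.22 to 12.4 and 27.9 to 44.2 on the siRNA arrays. The part of any of these lists in the results was not tested.

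LGALS2 had the largest fall of the 3 genes at both times. At 6 h its intensity was 688, 702 and 693 on the DMSO arrays and 398, 416 and 365 on the ICG-001 arrays. The DMSO arrays of 24 h read 1511, 1260.4 and 1317, and the treated ones 202, 208 and 190.3. No ICG-001 array reached any DMSO array of its time. The mean with ICG-001 was 56.6% of the DMSO mean at 6 h and 14.7% of it at 24 h. The log2 change was -1.003 ± 0.08 (SE, n = 3 against 3) at 6 h and -3.05 ± 0.08 at 24 h. In bulk RNA, fewer cells that make a transcript and less of it per cell cannot be told apart, which holds for each gene here.

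TM4SF4 was a little lower with ICG-001 at 6 h and far lower at 24 h. At 6 h its intensity was 1109, 1223 and 1224 with DMSO and 886, 936 and 943 with ICG-001. By 24 h the DMSO arrays read 1666, 1501 and 1428, and the treated ones 309, 344 and 336. The groups did not overlap at either time, and the mean with ICG-001 was 77.7% of the DMSO mean at 6 h and 21.5% at 24 h. The log2 change was -0.69 ± 0.08 (SE, n = 3 against 3) at 6 h and -2.56 ± 0.08 at 24 h. The 6 h value was -0.36 in the deposited scaling.

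APLP1 had the smallest early change. At 6 h its intensity was 535, 545 and 557 with DMSO and 493, 427 and 448 with ICG-001. The 24 h arrays read 536, 439.7 and 589 for DMSO and 90.6, 115 and 121 for ICG-001. The arrays at 6 h lay close together without overlap, and at 24 h every ICG-001 array was far below the lowest DMSO array. The mean with ICG-001 was 83.6% of the DMSO mean at 6 h and 20.9% at 24 h. The log2 change was -0.44 ± 0.11 (SE, n = 3 against 3) at 6 h and -2.39 ± 0.11 at 24 h. The 6 h value was -0.25 in the deposited scaling.

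**Figure D1:**
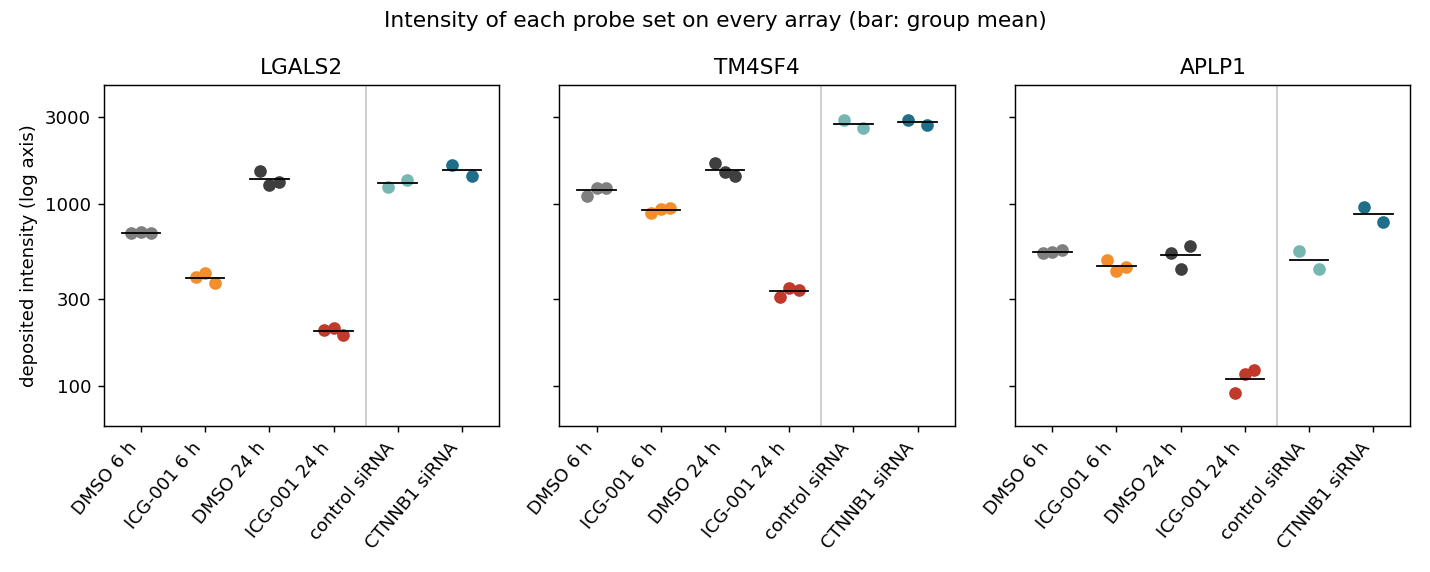
Deposited intensity (log axis) of the LGALS2, TM4SF4 and APLP1 probe sets on each of the 16 arrays, by group, with a bar at the group mean. The 3 ICG-001 24 h arrays are the lowest of every panel, at 190.3 to 208, 309 to 344 and 90.6 to 121, and APLP1 sits higher with CTNNB1 siRNA (798 and 958) than with control siRNA (439 and 548).

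All 3 genes had non-overlapping arrays at both times, which were values of the choice. Arrays with ICG-001 lay wholly below those with DMSO for 15.9% of the 5250 genes at 6 h and 18.5% at 24 h. A fall at 24 h that was larger than the change at 6 h, whatever its size, was found for 40.7% of genes, and one larger by at least 1 on the log2 scale for 38 genes (0.724%). A 24 h fall of at least 2 on the log2 scale was found for 14 genes (0.267%), these 3 among them. The 24 h change minus the 6 h change was -2.04 ± 0.11 (SE) for LGALS2, -1.94 ± 0.15 for APLP1 and -1.87 ± 0.11 for TM4SF4. These were the 3 lowest differences of all genes, although TM4SF4 ranked 4 in the deposited scaling and with each array centred on its median. The next gene down the order, MYB, which encodes a transcription factor and was named after its value was seen, stood at -1.77. With 1 in place of 16 added before log2 the ranks were 14 for LGALS2, 13 for APLP1 and 25 for TM4SF4, and with 64 added they were 1, 5 and 2.

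The 3 genes reached the late gap in different ways, which the change from 6 h to 24 h in each arm shows. These changes use the arrays the genes were chosen on and have no test. LGALS2 went up in DMSO, from a mean intensity of 694 ± 6.95 (SD, n = 3) to 1363 ± 131, a ratio of 1.96, while in ICG-001 it went down from 393 ± 26 to 200.03 ± 8.88, also a ratio of 1.96. On the log2 scale this was 1.00 ± 0.08 (SE) up in DMSO and a value of -1.05 ± 0.08 in ICG-001, so the arms parted by like amounts. TM4SF4 went from 1186 ± 65.9 to 1531 ± 122 in DMSO (log2 0.41 ± 0.08) and from 922 ± 31.2 to 329 ± 18.2 in ICG-001 (log2 -1.46 ± 0.08). APLP1 stayed near its early level in DMSO, at 545 ± 11 and 521 ± 75.6 (log2 -0.13 ± 0.11), with overlapping arrays. In ICG-001 it went from 456 ± 33.4 to 109.1 ± 16.3 (log2 -2.07 ± 0.11), the lowest value of that arm's change among all genes tested.

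**Figure D2:**
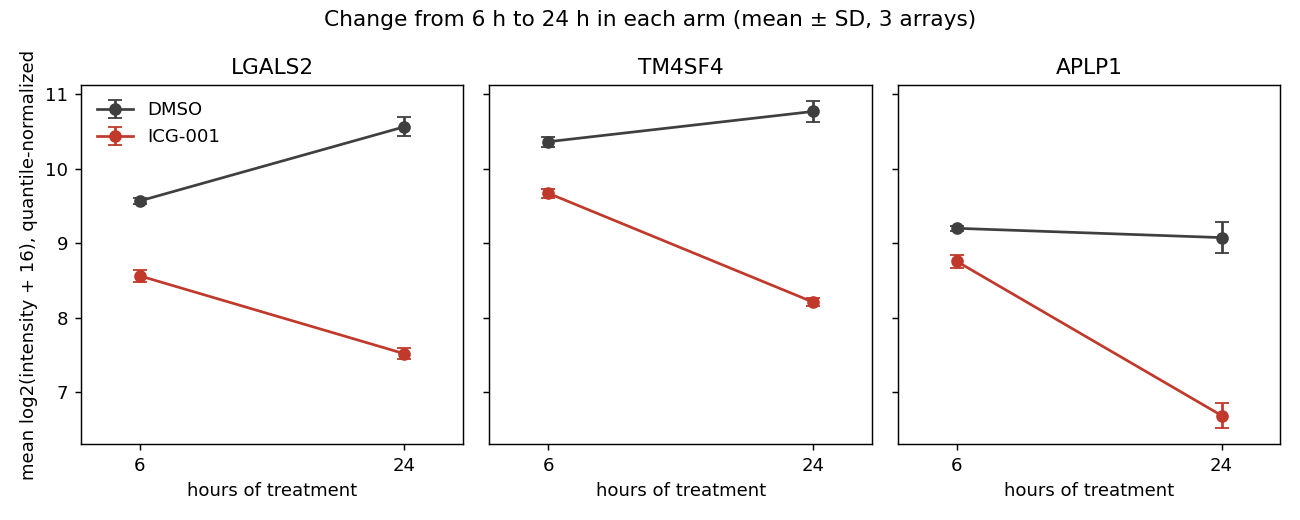
Mean quantile-normalized log2(intensity + 16) at 6 h and 24 h of treatment with DMSO (grey) or ICG-001 (red), with bars of 1 SD over 3 arrays. LGALS2 parts by 1.00 up in DMSO and -1.05 in ICG-001, whereas the DMSO line of APLP1 changes by -0.13 and its ICG-001 line by -2.07.

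Under CTNNB1 siRNA, APLP1 rose, the opposite direction to its drug values, and LGALS2 and TM4SF4 did not pass the test. This comparison asks whether loss of β-catenin itself moves the genes that the drug lowered. APLP1 intensity was 548 and 439 on the control siRNA arrays and 958 and 798 on the CTNNB1 siRNA arrays, with means of 494 ± 76.9 and 878 ± 114 (SD, n = 2). Both CTNNB1 siRNA arrays lay above both controls, as for 22.6% of all genes, by a ratio of the means of 1.78. The log2 change was 0.80 ± 0.13 (SE, 95% interval 0.53 to 1.08, adjusted p = 0.000332 by limma with Benjamini-Hochberg adjustment over 5250 genes). It passed the test in all 25 alternatives, with values of 0.67 to 0.94 and adjusted p of 0.000149 to 0.00981.

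LGALS2 intensity was 1234 and 1355 with control siRNA and 1623 and 1427 with CTNNB1 siRNA. Both knockdown arrays were higher in intensity but overlapped the controls after normalization, with a log2 change of 0.17 ± 0.09 (SE, 95% interval -0.03 to 0.36, limma adjusted p = 0.303). TM4SF4 intensity was 2905 and 2605 with control siRNA and 2904 and 2702 with CTNNB1 siRNA, and these arrays overlapped. Its log2 change was -0.06 ± 0.09 (SE, 95% interval -0.25 to 0.14, limma adjusted p = 0.788), and its sign turned in the deposited scaling (0.03). So 1 of the 3 genes rose and 0 fell, where 6.19% of all genes rose and 5.83% fell. At an unadjusted p under 0.05 the counts for the 3 genes were likewise 1 and 0. The interval of neither gene reaches a fall of the size seen with ICG-001 at 24 h. The difference between a gene's drug and siRNA changes was not tested, since the drug changes were used for the choice.

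**Figure D3:**
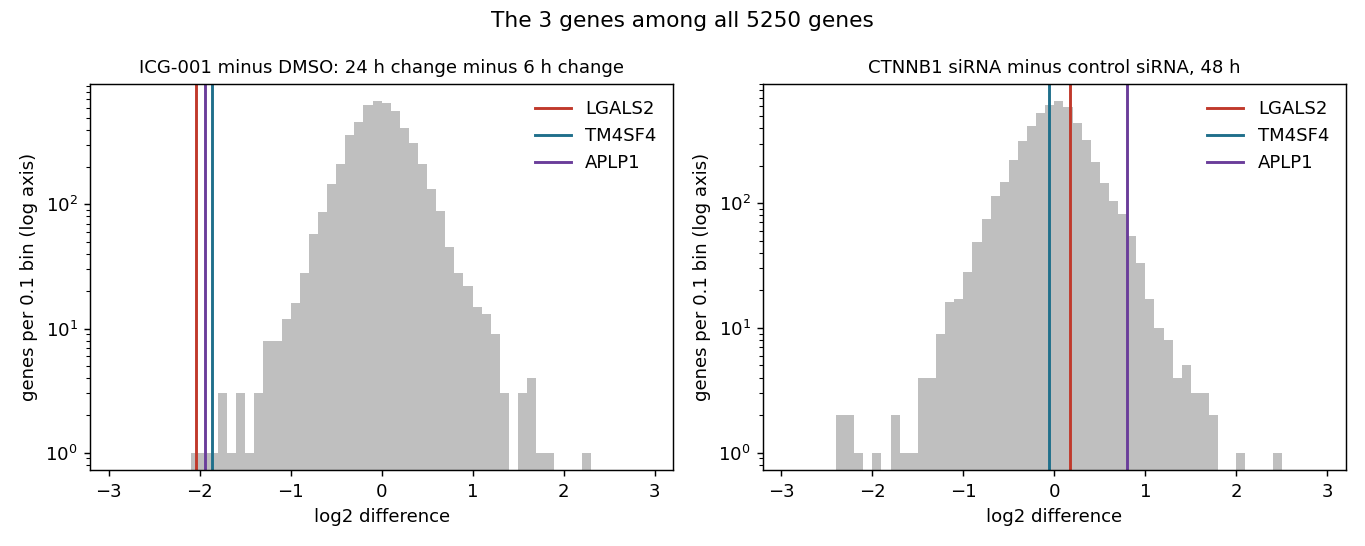
Histograms of log2 differences of all genes tested (log count axis, bins of 0.1) for the 24 h minus 6 h drug difference at left and for CTNNB1 siRNA minus control siRNA at right, with a line for each gene. At left the lines stand at -2.04, -1.94 and -1.87, beyond the other genes, and at right LGALS2 (0.17) and TM4SF4 (-0.06) lie within the bulk while APLP1 stands at 0.80.

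The order of levels over all 6 groups, on the normalized log2 scale, differed between the genes at its top and was the same at its bottom. ICG-001 24 h was lowest for each, below ICG-001 6 h by 1.05 for LGALS2, 1.46 for TM4SF4 and 2.07 for APLP1. For LGALS2 the order from the top was CTNNB1 siRNA, control siRNA, DMSO 24 h, DMSO 6 h and ICG-001 6 h, and the first 3 of these overlapped with their neighbours. For TM4SF4 both siRNA groups led and overlapped, and DMSO 24 h followed at a distance of 1.10. The mean TM4SF4 intensity was 2755 ± 212 (SD, n = 2) with control siRNA against 1531 ± 122 (n = 3) with DMSO 24 h, a log2 difference of 1.16 ± 0.09 (SE). The experiment, the transfection and the time cannot be told apart in that difference. For APLP1, CTNNB1 siRNA led by 0.78, and DMSO 6 h, control siRNA and DMSO 24 h followed with overlapping arrays.

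The measured relatives of the 3 genes did not share their large falls at 24 h. A fall of at least 2 on the log2 scale was rare, at 0.267% of all genes, so its absence from a short list says little. Of 49 listed members of the galectin and L6 tetraspan families and of the amyloid precursor protein family with its processing enzymes and adaptors, 10 were measured. For APLP1 these were BACE1 and adaptor genes, with no other member of its own family. At 24 h of ICG-001, 4 of the 10 fell and 1 rose, where 11.3% of all genes fell and 9.22% rose. Their median log2 change was -0.27, and that of all genes was -0.02. At 6 h 1 fell and 0 rose (8.23% and 5.56% of all genes, unadjusted counts 4 and 0), with a median of -0.10 beside -0.02. With CTNNB1 siRNA 0 passed limma's test in either direction, against 2 rises and 1 fall at an unadjusted p under 0.05, and the median was 0.14 beside 0.01. In the deposited scaling, genes that rose and fell numbered 406 and 244 at 6 h and 740 and 385 at 24 h, against 292 and 432 and 484 and 592 here. With each array centred on its median they were 370 and 222, and 544 and 553.

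Among galectins, LGALS3, the chimeric galectin-3, rose at 24 h, from 76.9 ± 10.2 (SD, n = 3) with DMSO to 125 ± 7.48 with ICG-001. Its log2 change was 0.54 ± 0.14 (SE, limma adjusted p = 0.00979), opposite in sign to that of LGALS2. Without DMSO 24 h replicate 3 it was 0.46 (limma adjusted p = 0.0527), and the adjusted p over its alternatives began at 0.0033. LGALSL, which encodes a galectin-like protein, fell at 24 h from 331 ± 7.27 to 277 ± 22.3 (log2 -0.44 ± 0.07, limma adjusted p = 8.11e-05, and -0.24 in the deposited scaling). It also fell at 6 h (-0.35 ± 0.07, limma adjusted p = 0.00132), and there the deposited scaling ended the call (-0.17, adjusted p = 0.199). LGALS13, the other galectin measured, was too dim for a fall to show, with group means of 2.74 to 6.12 on the drug arrays.

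In the L6 tetraspan family, TM4SF1 and TM4SF20 were measured and both fell at 24 h. TM4SF20, an intestinal relative, had 127 ± 16.1 with DMSO and 82.7 ± 4.02 with ICG-001 (log2 -0.66 ± 0.13, limma adjusted p = 0.000548). TM4SF1, an antigen of many carcinomas, had 127 ± 21.5 and 85.8 ± 15.9 (log2 -0.61 ± 0.15, limma adjusted p = 0.00551). TM4SF1 is also the nearest protein-coding gene before TM4SF4 on chromosome 3, from 149369022 to 149377649. It was the only measured gene among the 5 on each side of the 3 genes in the reference table. Among the 5 nearest protein-coding genes on each side, counted after seeing the data, 4 of 30 were measured. ELFN2 near LGALS2 stood at -0.40 ± 0.15 at 24 h (limma adjusted p = 0.0688). CP, the gene for ceruloplasmin, and ANKUB1, near TM4SF4, stood at -0.37 ± 0.18 and -0.01 ± 0.19 (limma adjusted p = 0.183 and 0.988).

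Of the amyloid precursor protein group, 5 of 28 listed genes were measured, and BACE1 was the one that passed a test. BACE1 encodes the β-secretase that cuts the amyloid precursor protein. At 24 h it fell from 199 ± 29.4 to 154 ± 10.2 (SD, n = 3; log2 -0.47 ± 0.10, limma adjusted p = 0.00153). With CTNNB1 siRNA it was 308 and 334 on control arrays and 425 and 457 on knockdown arrays. That change, 0.38 ± 0.12, missed the threshold (limma adjusted p = 0.0514) and passed it in 9 of 25 alternatives, over which the adjusted p ran from 0.0175 to 0.206. The adaptor genes APBB2, APBA1, APBA3 and APBB1IP, given although they fall outside the rule for named genes, stood between -0.35 and 0.09 at 24 h, and none passed the test. APBA1 was dim, with group means of 7.5 to 17.2 on the drug arrays.

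**Figure D4:**
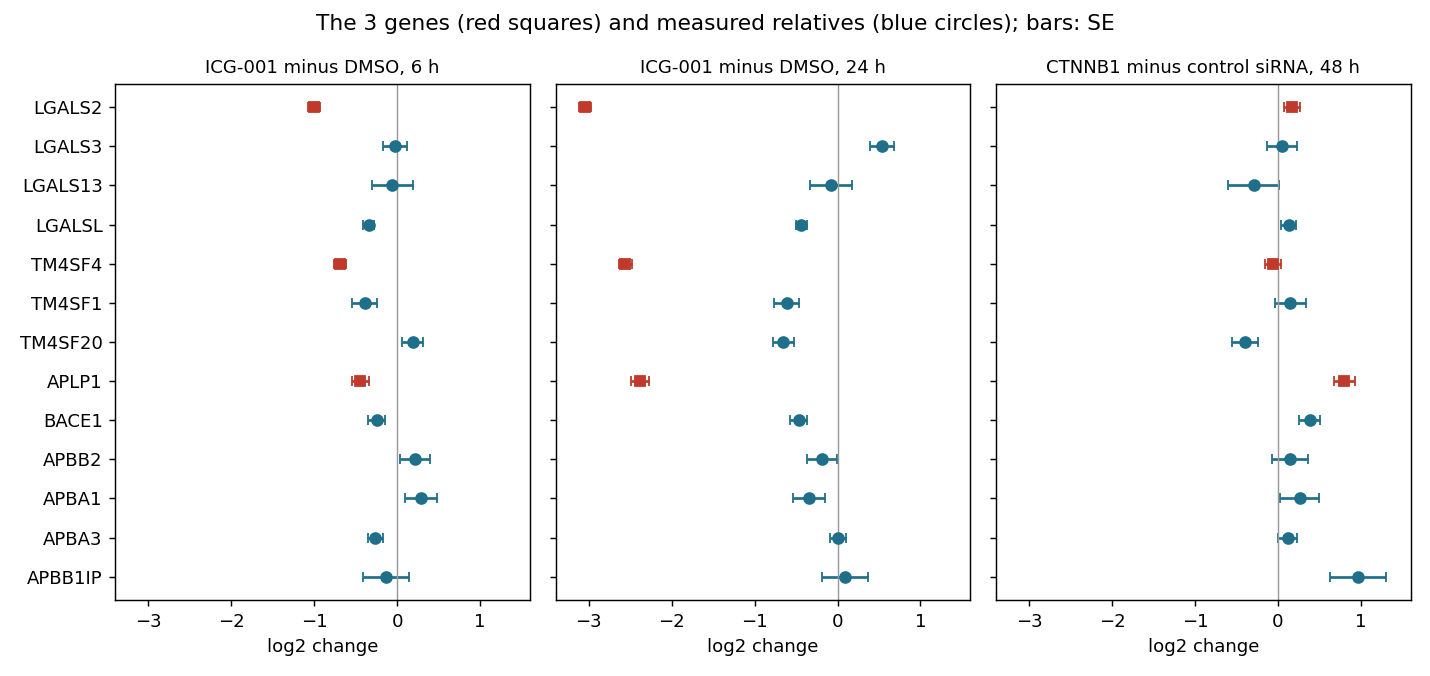
Log2 changes with bars of 1 SE for LGALS2, TM4SF4 and APLP1 (red squares) and their measured relatives (blue circles) in 3 comparisons. At 24 h the red squares stand at -3.05, -2.56 and -2.39, and the relatives lie between -0.66 and 0.54.

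Other gut and β-catenin-linked genes, from lists of their own, moved in several ways. Of 11 measured foregut and gut transcription factors (38 listed), NR0B2 and FOXA1 fell and 0 rose at 24 h, by -2.25 ± 0.14 and -1.95 ± 0.10 on the log2 scale (limma adjusted p = 2.98e-10 and 1.85e-11), and the list's median was -0.09. Of all genes 11.3% fell and 9.22% rose at that time. Several of the 11 were too dim on the drug arrays for a fall to show. Their group means there were 1.01 to 3.37 for GATA4, 2.28 to 7.37 for PAX4 and 2.20 to 6.04 for INSM1, with 16 added before log2. With CTNNB1 siRNA 1 of the 11 rose, NR0B2 (0.54 ± 0.17, limma adjusted p = 0.0496, past the threshold in 9 of 25 alternatives with adjusted p from 0.0038 to 0.451), and 1 fell, FOXA1 (-0.64 ± 0.12, limma adjusted p = 0.00159), where 6.19% of all genes rose and 5.83% fell. At 6 h both had already fallen (-1.68 and -1.52), against -1.003 to -0.44 for LGALS2, TM4SF4 and APLP1. Of 12 measured enterocyte and hepatocyte genes (38 listed), 4 rose and 0 fell at 24 h, with a median of 0.22, where 9.22% of all genes rose and 11.3% fell. Among the risers FGG and CEACAM7 were dim, with group means of 10.2 to 40.6 and 3.87 to 34.3 on the drug arrays. The FGG change, 0.87 ± 0.24 (limma adjusted p = 0.0116), ran from 0.37 to 1.59 over its alternatives, with limma adjusted p up to 0.0628. With CTNNB1 siRNA 1 of the 12 rose, SLC5A1, a glucose transporter (0.93 ± 0.27, limma adjusted p = 0.0328), and it passed in 17 of 25 alternatives, with adjusted p from 0.00981 to 0.267. SLC5A1 was dim, at 5.58 and 6.29 on control siRNA arrays and 17 and 18.6 on CTNNB1 siRNA arrays. Its change ran from 0.38 to 1.78 over the alternatives. Others of the 12 were dim as well, among them FABP2, with group means of 2.43 to 5.1 on the drug arrays. CDHR5, a protocadherin of the intestinal brush border, rose at 24 h from 178 ± 13.2 to 446 ± 7.87 (log2 1.14 ± 0.09, limma adjusted p = 5.08e-09). At 6 h 0 of the 12 passed limma's test, where 5.56% of all genes rose and 8.23% fell. At an unadjusted p under 0.05 the list had 0 rises and 2 falls.

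Of 13 measured T cell factor and β-catenin target genes (28 listed), 9 fell and 0 rose at 6 h, 9 fell and 1 rose at 24 h, and 7 fell and 1 rose with CTNNB1 siRNA. Of all genes 8.23%, 11.3% and 5.83% fell and 5.56%, 9.22% and 6.19% rose in these comparisons. The list's medians were -0.52, -1.15 and -0.49. The deposited scaling gave 5 called at 6 h. MMP7, a secreted protease, has a late drug fall like the 3 genes, from -0.69 at 6 h to -2.45 at 24 h, but it also fell with CTNNB1 siRNA (-2.39 ± 0.18, limma adjusted p = 3.26e-08), where APLP1 rose.

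Likeness to other genes was described by Pearson's r over the 16 arrays on the normalized log2 scale. The arrays of a group share a treatment, so r follows the 6 group levels and is no sign of independent points. The 3 genes were chosen on 12 of these arrays for a like change. A high r between them therefore follows in part from the choice. The profile closest to that of LGALS2 among all other genes was that of TM4SF4 (r = 0.96), followed by the pseudogene CRYZL2P and by HELLS, a chromatin remodelling helicase (both 0.94). On the 12 drug arrays alone TM4SF4 ranked 16 for LGALS2, and over the 16 arrays LGALS2 ranked 6 for TM4SF4. Among the 3 genes closest to TM4SF4 were BCLAF1, a nuclear RNA-processing protein (0.97), and CHAF1A, a histone chaperone subunit of replication (0.97). APLP1 was closest to HELLS (0.94), ACTR3, an actin-nucleating subunit (0.93), and EMP2, a membrane protein (0.93). The r of APLP1 was 0.90 with TM4SF4 and 0.86 with LGALS2. With HELLS it was 0.85 in the deposited scaling, where that of LGALS2 with HELLS was 0.79.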

How the data were processed

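Per the labels' protocols, total RNA was labelled with biotin for Affymetrix arrays. The deposited table gives a linear intensity for every probe set on every array. Its summarisation and scaling were not given in the sources used here. Among 9554 probe sets, 6442 named 1 gene, 252 several and 2860 none, in GEO's platform annotation, and 6432 were matched to current symbols through gene identifiers.

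The number 16 was added before log2, and the 16 arrays were quantile-normalized because their medians differed by 0.64, over a limit of 0.5. The probe set of highest mean was kept for each of 5250 genes. Groups were terms of 1 linear model over 16 arrays (limma 3.58.1, R 4.3.3; intensity trend, 10 residual and 7.84 prior degrees of freedom). Tests were two-sided at an adjusted p under 0.05 (Benjamini-Hochberg over all genes), and the fit was tested on simulated data. The number of arrays limits precision.

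The 3 genes and the lists were chosen with earlier results of these data known. Named genes were the 3 genes, up to 3 called genes of largest change per list and comparison, the 3 genes most correlated with each (1 is not reported here), and measured neighbours; others are said to be chosen after their values were seen. Ductal, acinar, islet, fibroblast, leukocyte and endothelial marker lists were read for levels. Alternatives changed the scaling, the added number (1 or 64), the dim filter (lowest 25%), the probe set rule, a replicate block, the arrays fitted, and left out each array. Sequences are RefSeq's, GRCh38.p14.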

Additional observations from a re-analysis of the deposited data

Results flagged for a closer look

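The drug change of some named genes other than LGALS2, TM4SF4 and APLP1 differed between 6 h and 24 h, as tested by the difference of the 2 log2 changes in limma with adjustment over all genes. In the L6 tetraspan family TM4SF20 had a 24 h minus 6 h value of -0.84 ± 0.18 (SE, adjusted p = 0.00419), from 0.19 to -0.66. The enterocyte genes CDHR5 and CEACAM7 had values of 1.19 ± 0.12 (adjusted p = 3.46e-06) and 1.68 ± 0.34 (adjusted p = 0.00273). CEACAM7 was dim, with group means of 3.87 to 34.3, and its 24 h change ran from 0.43 to 2.66 over 24 alternatives, depending on the number added before log2 (64 or 1). The β-catenin target genes MMP7, LGR5 and SOX4 had values of -1.76 ± 0.21 (adjusted p = 1.16e-05), -0.99 ± 0.17 (adjusted p = 0.00051) and -0.54 ± 0.13 (adjusted p = 0.0114). Groups of 2 or 3 arrays are too small for a check on single arrays that stand apart.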

How the results depend on the processing

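All 225 alternative values of the 3 genes' drug changes were negative, as were the values of the choice, and 203 moved by less than 1 SD between replicates. Many of the 203 could not move. Leaving out an array outside the comparison keeps the change as it was, as do the replicate block and the probe set rule. The tally is therefore no test of stability. In the deposited scaling and with each array centred on its median, the 6 h change was -0.80 and -0.81 for LGALS2, -0.36 and -0.37 for TM4SF4 and -0.25 and -0.26 for APLP1, and the 24 h change was -2.67 and -2.80, -2.16 and -2.29, and -2.10 and -2.23. The deposited scaling gave a 24 h minus 6 h difference of -1.87 for LGALS2. With 64 added before log2, the 24 h change was -2.75 for LGALS2, -2.38 for TM4SF4 and -1.95 for APLP1, and the difference was -1.83, -1.72 and -1.55. With 1 added, the 24 h change was -3.16 for LGALS2 and -2.58 for APLP1, and the difference of APLP1 was -2.13. The siRNA value of TM4SF4 turned to 0.0258 in the deposited scaling (adjusted p = 0.942) and 0.0254 with median centring (adjusted p = 0.95), and ran from -0.193 to 0.0758 when single arrays were left out, 0.0758 being without control siRNA replicate 1. The cause was not tested in any of these.

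Counts of list genes moved as follows. For the 3 families at 6 h the count was 0 in the deposited scaling and with median centring, 2 with the mean of probe sets, and 1 to 2 with single arrays left out. With CTNNB1 siRNA it was 1 in those 3 settings, with quantile normalization within each experiment, with 1 or 64 added, without dim probe sets and on the siRNA arrays alone, and 0 to 1 with arrays left out. For the transcription factors with siRNA it was 1 with 1 added, with the mean of probe sets and on the siRNA arrays alone, and 1 to 2 with arrays left out. For the enterocyte genes with siRNA it was 0 in the deposited scaling, with median centring, within each experiment and on the siRNA arrays alone, 2 with 1 added, and 0 to 1 with arrays left out; at 6 h it was 0 to 1. For the β-catenin target genes at 6 h it was 5 in the deposited scaling and with median centring. The replicate block left APLP1 under siRNA at 0.80 (adjusted p = 0.000149) and changed no call of the 3 genes. The labels give a replicate number and no word on pairing. Among 20 pairs of same-numbered arrays, 0 had deviations from their group means that correlated above 0.1 (-0.15 to 0.09). This cannot show that such arrays were not paired. With 2 arrays in each siRNA group, both siRNA pairs carry the same value by construction.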

Other observations

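ICG-001 at 24 h and CTNNB1 siRNA share no arrays, and APLP1 belongs to the smaller of the sets that their calls form among falling genes. Of 592 genes that fell with ICG-001 at 24 h, 126 also fell with CTNNB1 siRNA (21.3% of them and 41.2% of the 306 that fell with siRNA), and 61 rose with it (10.3% of them and 18.8% of the 325 that rose). Of all genes 5.83% fell and 6.19% rose with siRNA, and 11.3% fell with the drug. APLP1 is among the 61. Among the 14 genes with a drug fall of at least 2 log2 units at 24 h, a group formed after their values were seen, 2 rose with CTNNB1 siRNA, APLP1 and NR0B2 (0.54 ± 0.17, limma adjusted p = 0.0496). Of the other genes in that group, 5 fell with siRNA, among them MYB (-1.69 ± 0.21) and TMEM97 (-1.05 ± 0.11), and 7 did not pass the test, LGALS2 and TM4SF4 included, to be read against the same 6.19% and 5.83% of all genes. The rise of NR0B2 passed in 9 of 25 alternatives (0.25 to 0.84, adjusted p from 0.0038 to 0.451), and without control siRNA replicate 2 it was 0.25. The keratin gene KRT7, picked after its values were seen, also fell with the drug (-1.35 ± 0.09, limma adjusted p = 6.07e-10) and rose with siRNA (1.06 ± 0.11, limma adjusted p = 1.91e-06).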
